A study of Mus musculus with 8 samples.

Results

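*Bcl6*, its close relative *Bcl6b* and 7 genes of BCL6's corepressors (*Ncor1*, *Hdac3*, *Bcor*, *Mta3*, *Ctbp1*, *Hdac4* and *Hdac5*) were followed in male mouse livers with and without a hepatocyte deletion of *Bcl6*. The 9 genes were taken by their symbols from a table of 24940 genes, and all 9 were among the 12340 genes with enough reads to be tested. FxrKO livers (n = 4) came from C57BL/6 mice labelled Bcl6(fl/fl) and FXR(homo), in which *Bcl6* carries loxP sites and the bile acid receptor gene *Fxr* (*Nr1h4*) is lost from the whole body. Bcl6LKOFxrKO livers (n = 4) came from mice with the same 2 alleles that additionally carried Alb-Cre, a recombinase driven by the albumin promoter. Both groups therefore share the loss of *Fxr*, and no liver with intact *Fxr* was analysed here. The albumin promoter is not used by endothelial, immune or stellate cells, which are present in the same livers, and *Bcl6* was not measured by cell type. The ages are not given in the labels, and livers are named 1 to 4 within each genotype with no pairing between genotypes. *Nr1h4* reads were still counted in both groups, at means of 60.0 CPM in FxrKO and 43.5 CPM in Bcl6LKOFxrKO livers, and were lower in the latter (log2 fold change -0.46, adjusted p = 0.00497, edgeR). CPM are counts scaled to a common library size with the TMM factors of edgeR. Genes are called higher or lower where edgeR's quasi-likelihood test, adjusted over all 12340 genes, gave p under 0.05.

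BCL6 is a zinc finger repressor of the BTB family. Its BTB domain binds the corepressors NCOR1 and BCOR, and a second repression region contacts the NuRD complex through MTA3. NCOR1 carries the histone deacetylase HDAC3, BCOR works in a Polycomb complex, CTBP1 brings further histone-modifying enzymes, and HDAC4 and HDAC5 are class IIa deacetylases that act largely as scaffolds. BCL6 is best known from germinal centre B cells and follicular helper T cells. In liver it acts on genes that are also bound by STAT5, the factor switched on by growth hormone, and on genes of fatty acid oxidation that are driven by PPARα.

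The promoter of *Bcl6* is shown first because STAT5 binds the letters TTCNNNGAA and BCL6 reads a closely related sequence. RefSeq promoter windows (GRCm38.p6, the coordinates of mm10) were examined for 6 of the 9 genes. Each ran from 250 bases before to 50 bases after a start. No window of *Bcl6b*, *Hdac3* or *Mta3* was examined, so whether their promoters hold these letters was not tested. The 250 bases before the start of the counted *Bcl6* transcript, chr16:23981284-23981533 on the minus strand, hold the motif 3 times (capitals):
Bcl6 counted start: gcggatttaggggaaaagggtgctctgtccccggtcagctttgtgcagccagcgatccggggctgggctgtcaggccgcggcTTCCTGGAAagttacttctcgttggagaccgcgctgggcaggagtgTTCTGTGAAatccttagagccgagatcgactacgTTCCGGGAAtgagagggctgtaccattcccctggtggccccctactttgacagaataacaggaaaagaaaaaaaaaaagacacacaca

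The 3 matches begin at -168, -122 and -88 relative to that start. The motif is its own reverse complement, so a match counts for both strands. Of 32851 mouse promoter windows of the same length, 8.3% held at least 1 match, 0.457% at least 2 and 0.0335%, or 11 windows, at least 3. A further *Bcl6* start lies upstream, and its window (chr16:23988803-23989102) held 1 match. *Ncor1* and *Bcor* each had 1 match, which is shown with 10 bases on either side to let the sites be compared:
Bcl6 upstream start: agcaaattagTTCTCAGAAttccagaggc
Ncor1 counted start: tgtaggttgcTTCCTAGAAacatggttgt
Bcor upstream start: ccaaactcacTTCGGAGAAagggaaagag

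The *Ncor1* match (chr11:62438502-62438510, minus strand) begins at base 6 of the counted transcript, inside its first exon, and a second *Ncor1* start had no match. The *Bcor* match (chrX:12160451-12160459) lies before a pair of neighbouring starts, outside the counted transcript. The windows of *Hdac4*, *Hdac5* and *Ctbp1* did not contain these letters. The matches describe sequence alone, since binding was not measured in these samples.

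Of the 9 genes, *Bcl6* and *Ncor1* were lower and *Mta3* was higher in Bcl6LKOFxrKO livers, and 6 did not pass the test. Over all tested genes, 13.5% were called lower, 16.2% higher and 29.7% either way, so the 3 calls among 9 genes sit near that background. The same 3 genes had no overlap between the genotypes, which was the case for 31.3% of all tested genes (16.1% with all Bcl6LKOFxrKO livers above and 15.2% with all below). The median log2 fold change (Bcl6LKOFxrKO minus FxrKO) of all tested genes was 0.01, with 1994 genes called higher and 1665 lower. With total counts in place of TMM scaling the median was -0.15, and 1404 genes were called higher and 2949 lower. The libraries held between 7586241 and 11839503 counts, and 3 counts corresponded to between 0.272 and 0.375 CPM, a floor that covers counting error only. In FxrKO livers 29.8% to 31.2% of the counts fell on the 50 most counted genes, and in Bcl6LKOFxrKO livers 40.7% to 44.1%. The first principal component of log2 CPM held 71.5% of the variance and separated the genotypes, and Bcl6LKOFxrKO liver 4 lay apart on the second, which held 8.07%.

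**Figure D1:**
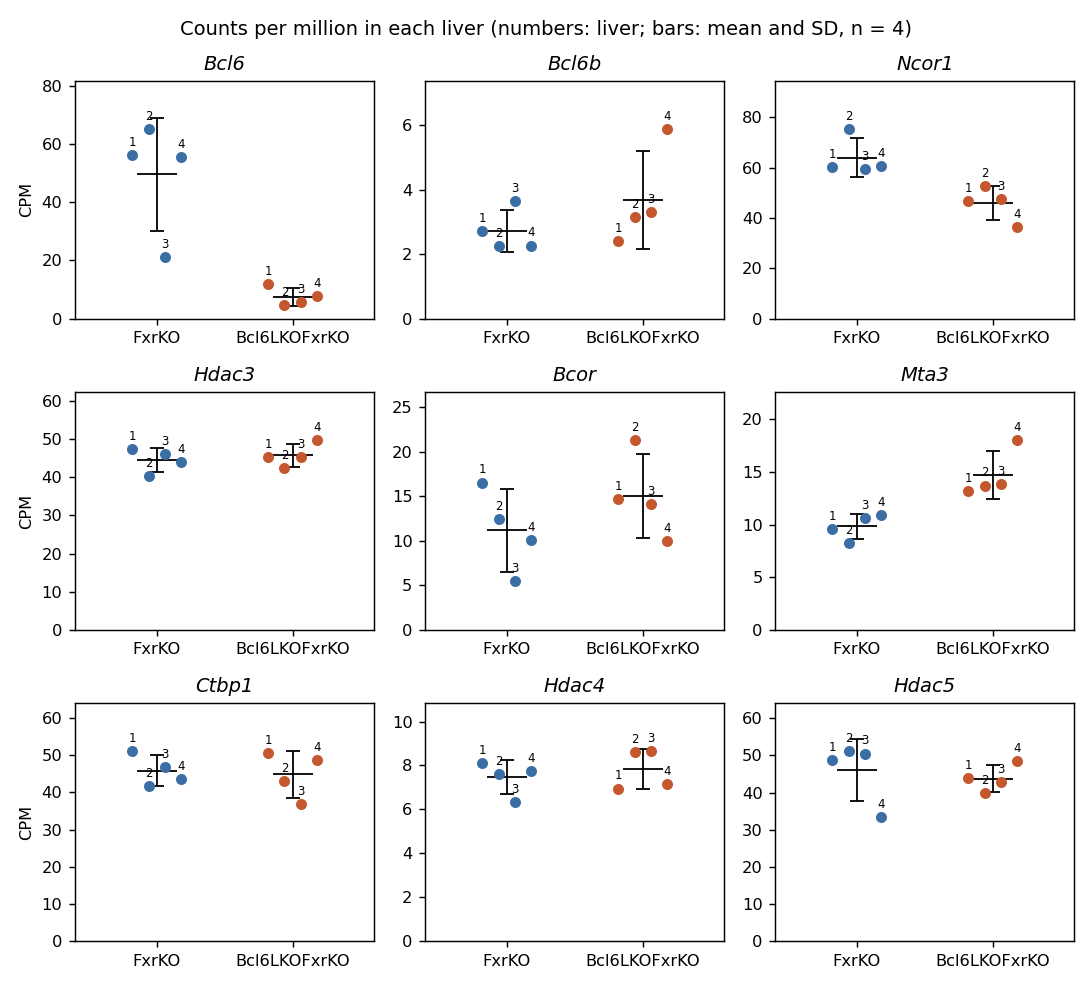
CPM of the 9 genes in each liver (points, numbered by liver) with the mean and SD of the 4 FxrKO (blue) and 4 Bcl6LKOFxrKO (orange) livers; each panel has its own axis, which starts at 0. All FxrKO livers lie above all Bcl6LKOFxrKO livers for *Bcl6* and *Ncor1* and below them for *Mta3*, while the groups overlap for the other 6 genes.

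*Bcl6* itself (NM_001348026, mm10 chromosome 16 from 23965050 to 23981283, minus strand) is the gene that Alb-Cre deletes, and its level checks the labels. It was counted 541, 522, 197 and 588 times in FxrKO livers 1 to 4, equal to 56.3, 65.2, 21.2 and 55.6 CPM. In Bcl6LKOFxrKO livers 1 to 4 it was counted 118, 38, 57 and 85 times, equal to 11.9, 4.61, 5.55 and 7.72 CPM. Every Bcl6LKOFxrKO liver lay below every FxrKO liver, and FxrKO liver 3 stood well below the other FxrKO livers. The level was 6.61-fold lower in Bcl6LKOFxrKO livers, a log2 fold change of -2.72 with a standard error of 0.40 and a 95% interval from -3.64 to -1.80 (adjusted p = 0.00123, edgeR). The exact two-sided permutation test over the 70 orderings of the 8 livers gave p = 0.029, the smallest it can give. Leaving out each liver in turn moved the log2 fold change between -3.04 and -2.57, and the call held each time.

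The remaining *Bcl6* reads ranged widely among the Bcl6LKOFxrKO livers. Against the FxrKO mean, liver 1 kept 24.0% of the level, liver 4 15.6%, liver 3 11.2% and liver 2 9.3%. FxrKO liver 3 was at 42.7% of its own group's mean, nearer to Bcl6LKOFxrKO liver 1 than to the other FxrKO livers. The coefficient of variation of CPM was 39.2% in FxrKO and 43.5% in Bcl6LKOFxrKO livers. It was 41.4% and 31.3% for *Bcor* and 24.2% and 41.2% for *Bcl6b*. The deposited value counts the exons of the 1 listed transcript together, so a transcript that lacks only the deleted exons would still add to it.

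Markers of other liver cell types were present in both groups. Summed over 13 endothelial genes, they stood at 276 to 364 CPM in FxrKO and 357 to 476 CPM in Bcl6LKOFxrKO livers, with 2 genes called higher (*Stab2* and *Eng*) and none lower. The *Eng* call was lost with total counts alone (0.29). The 11 macrophage genes summed to 498 to 684 CPM and 662 to 1167 CPM, with 4 higher and none lower. The 11 stellate cell genes summed to 316 to 424 CPM and 634 to 709 CPM, with 8 higher and none lower, and the 8 cholangiocyte genes to 58.7 to 85.2 CPM and 109 to 216 CPM, with 3 higher and none lower.

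B and T lymphocytes, where BCL6 is best known, left few reads. The 8 B cell genes summed to 3.95 to 7.74 CPM in FxrKO and 4.73 to 13.5 CPM in Bcl6LKOFxrKO livers, and the 9 T cell genes to 2.499 to 3.98 CPM and 5.34 to 7.17 CPM, with every Bcl6LKOFxrKO liver above every FxrKO liver. Only 2 of the B cell genes and 0 of the T cell genes had enough reads to be tested, and *Pax5* and *Pdcd1* had at most 3 counts in any liver. No marker was at 0 in all livers. The part of these cells in the remaining *Bcl6* reads was not tested, and in bulk RNA fewer cells of a type cannot be told apart from less RNA per cell. The 11 hepatocyte genes had 2 called higher and 3 lower, and their sum went from 73377 to 84514 CPM in FxrKO livers to between 154759 and 184472 CPM in Bcl6LKOFxrKO livers, most of it *Alb*.

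*Bcl6b* (NM_007528, chromosome 11 from 70224127 to 70229798, minus strand) encodes a repressor whose zinc fingers closely resemble those of BCL6. Its level was 2.71, 2.25, 3.65 and 2.27 CPM in FxrKO livers 1 to 4 and 2.42, 3.16, 3.31 and 5.90 CPM in Bcl6LKOFxrKO livers 1 to 4, from 18 to 65 counts a liver. The groups overlapped, and the high mean of the Bcl6LKOFxrKO group came mainly from liver 4. With a log2 fold change of 0.45, a standard error of 0.30 and a 95% interval from -0.20 to 1.10, *Bcl6b* missed the threshold (adjusted p = 0.280, edgeR). At this depth that interval runs from 0.873-fold to 2.14-fold. A change of *Bcl6b* beside the lower *Bcl6* was therefore not detected but is not shown to be absent.

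*Ncor1* (NM_011308, chromosome 11 from 62316426 to 62438515, minus strand), the large scaffold that holds HDAC3, was 1 of the 2 genes called lower. It stood at 60.2, 75.6, 59.6 and 60.6 CPM in FxrKO livers 1 to 4 and at 46.8, 52.8, 47.7 and 36.4 CPM in Bcl6LKOFxrKO livers 1 to 4. No liver of one genotype reached the range of the other. The level fell by 28.2%, a log2 fold change of -0.48 with a standard error of 0.13 and a 95% interval from -0.77 to -0.19 (adjusted p = 0.0164, edgeR; exact permutation p = 0.029). Without FxrKO liver 2, the highest of its group, the log2 fold change was -0.39 and the call was lost (adjusted p = 0.0588, edgeR).

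*Hdac3* (NM_010411, chromosome 18 from 37936971 to 37954988, minus strand), the deacetylase of the NCOR1 complex, ran between 40.2 and 47.5 CPM in FxrKO livers and between 42.4 and 49.8 CPM in Bcl6LKOFxrKO livers. It varied less among livers than any other of the 9 genes, with coefficients of variation of 7.11% and 6.77%. The log2 fold change was 0.04 (95% interval from -0.19 to 0.27, adjusted p = 0.815, edgeR), which bounds any difference between 0.877-fold and 1.20-fold. Of the 6 genes listed for this complex, 1 was called higher and 1 lower, against 16.2% and 13.5% of all tested genes. The median log2 fold change of the 6 was -0.07. The higher gene was *Gps2*, an inhibitory subunit, at 0.40 (adjusted p = 0.0441, edgeR). Its call was lost when any of FxrKO livers 1 to 4 or Bcl6LKOFxrKO livers 1 and 4 was left out, with values between 0.30 and 0.43 in those fits. It was also lost with total counts alone (0.24), without the 50 most counted genes (0.38) and with no filter (0.38).

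*Bcor* (NM_029510, chromosome X from 12036738 to 12080553, minus strand), the BTB-binding subunit of a Polycomb complex, was among the most variable genes. Its level was 16.5, 12.5, 5.48 and 10.1 CPM in FxrKO livers 1 to 4 and 14.7, 21.4, 14.1 and 9.99 CPM in Bcl6LKOFxrKO livers 1 to 4. The groups overlapped broadly. FxrKO liver 3, the lowest of its group for *Bcl6*, was the lowest for *Bcor* as well, and also for *Hdac4* and, by a small margin, *Ncor1*. The log2 fold change of *Bcor* was 0.42 with a standard error of 0.31 and a 95% interval from -0.26 to 1.11 (adjusted p = 0.333, edgeR). Among the 10 genes of the BCOR complex, 0 were called higher and 2 lower, against 16.2% and 13.5% of all tested genes. The median log2 fold change of the 10 was -0.03. The 2 lower genes were *Yaf2* (-0.52, adjusted p = 0.0193, edgeR) and *Rybp* (-0.88, adjusted p = 0.031, edgeR), a pair of related subunits that bind RING1 proteins. The *Yaf2* call was lost without FxrKO liver 3 (-0.47). That of *Rybp* was lost without FxrKO liver 2, 3 or 4 or Bcl6LKOFxrKO liver 1 or 4, with values between -0.88 and -0.66.

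**Figure D2:**
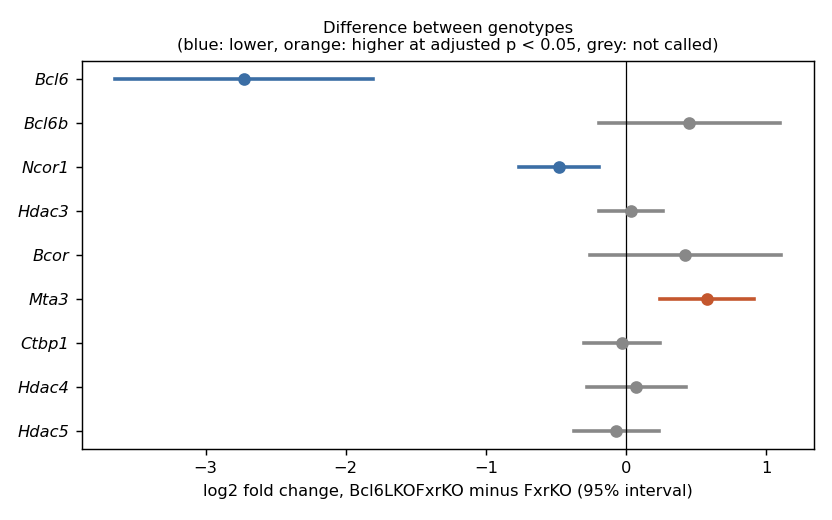
Log2 fold change (Bcl6LKOFxrKO minus FxrKO, points) with its 95% interval from edgeR (lines) for the 9 genes, 4 livers a genotype. *Bcl6* lies at -2.72, *Ncor1* at -0.48 and *Mta3* at 0.58 with intervals off 0, and the intervals of the 6 other genes include 0.

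*Mta3* (NM_054082, chromosome 17 from 83706163 to 83814905, plus strand), the NuRD subunit through which BCL6 reaches that complex, was the only one of the 9 genes called higher. It was at 9.57, 8.25, 10.6 and 10.9 CPM in FxrKO livers 1 to 4 and at 13.2, 13.7, 13.8 and 18.1 CPM in Bcl6LKOFxrKO livers 1 to 4. The lowest Bcl6LKOFxrKO liver lay above the highest FxrKO liver, and Bcl6LKOFxrKO liver 4 was the highest of all. The level was 1.49-fold higher, a log2 fold change of 0.58 with a standard error of 0.16 and a 95% interval from 0.24 to 0.92 (adjusted p = 0.0144, edgeR; exact permutation p = 0.029). The call was lost without FxrKO liver 2 (0.50, adjusted p = 0.0510, edgeR) and with total counts in place of TMM scaling (0.42, adjusted p = 0.0538, edgeR). The T cell, stellate cell and cholangiocyte marker sums were likewise higher in every Bcl6LKOFxrKO liver than in every FxrKO liver. So was the hepatocyte sum, most of it *Alb*, though 2 of the 11 hepatocyte genes were called higher and 3 lower. The part of these markers in the rise of *Mta3* was not tested.

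The other NuRD genes that passed the test were all lower in Bcl6LKOFxrKO livers. *Mta2* fell by 0.30 on the log2 scale (adjusted p = 0.0366, edgeR). Its call was lost without any of the FxrKO livers or Bcl6LKOFxrKO liver 1 or 3 (-0.32 to -0.27) and with at least 10 counts required in every liver (-0.28). For the third paralog, *Mta1*, the log2 fold change of 0.25 missed the threshold (adjusted p = 0.113, edgeR). Of the 14 NuRD genes, 1 was called higher, *Mta3* itself, and 4 lower. The shares over all tested genes were 16.2% and 13.5%, and the median log2 fold change of the 14 was -0.0036. The histone-binding subunit gene *Rbbp4* was at 113, 108, 114 and 105 CPM in FxrKO livers 1 to 4 and at 61.6, 59.8, 65.5 and 51.4 CPM in Bcl6LKOFxrKO livers 1 to 4, a log2 fold change of -0.88 (adjusted p = 5.21e-05, edgeR). The genotypes were far apart for *Rbbp4*, and likewise for the remodelling enzyme gene *Chd3*, at -0.76 (adjusted p = 0.000326, edgeR). *Mbd2*, a methyl-DNA binding subunit, was at -0.41 (adjusted p = 0.0169, edgeR), and its call was lost without FxrKO liver 3 (-0.39). The other remodelling enzyme, *Chd4*, was at 0.14 (adjusted p = 0.398, edgeR) and changed sign with total counts alone. *Mta1*, *Mta2* and *Chd4*, like *Ctbp2*, *Stat5b*, *Jak2* and *Fbxo11*, are named as relatives or partners, a choice made after their values were seen.

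*Ctbp1* (NM_001198861, chromosome 5 from 33247723 to 33275004, minus strand), a corepressor with a dehydrogenase fold, was at 41.7 to 51.2 CPM in FxrKO and 36.8 to 50.7 CPM in Bcl6LKOFxrKO livers. The log2 fold change was -0.03 with a 95% interval from -0.30 to 0.24 (adjusted p = 0.876, edgeR), between 0.811-fold and 1.18-fold. Its paralog *Ctbp2* was far lower, at a mean of 1.52 CPM and 1.93 CPM, with a log2 fold change of 0.32 (adjusted p = 0.516, edgeR). Of the 10 genes of the CtBP complex, 0 were called higher and 1 lower, against 16.2% and 13.5% of all tested genes. The median log2 fold change of the 10 was 0.14. The lower gene was *Ehmt1*, a histone H3 lysine methyltransferase, at -0.59 (adjusted p = 0.00299, edgeR). Its levels were 21.6, 24.7, 27.4 and 26 CPM in FxrKO livers 1 to 4 and 15.7, 16.9, 17.8 and 15.8 CPM in Bcl6LKOFxrKO livers 1 to 4, with no overlap.

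Neither of the class IIa deacetylase genes passed the test. *Hdac4* (NM_207225, chromosome 1 from 91928779 to 92180341, minus strand) ran between 6.34 and 8.12 CPM in FxrKO and between 6.95 and 8.67 CPM in Bcl6LKOFxrKO livers, with a log2 fold change of 0.07 and a 95% interval from -0.28 to 0.42 (adjusted p = 0.776, edgeR). *Hdac5* (NM_001284248, chromosome 11 from 102195747 to 102230172, minus strand) stood at 48.7, 51.2, 50.5 and 33.5 CPM in FxrKO livers 1 to 4 and at 44.0, 39.9, 42.8 and 48.4 CPM in Bcl6LKOFxrKO livers 1 to 4. FxrKO liver 4 was below every other liver, while FxrKO livers 1 to 3 lay just above the highest Bcl6LKOFxrKO liver. The log2 fold change was -0.07 with a 95% interval from -0.37 to 0.23 (adjusted p = 0.748, edgeR), and without FxrKO liver 4 it was -0.20 (adjusted p = 0.246, edgeR). In the annotation, an exon of *Hdac4* overlaps that of a noncoding gene on the other strand over 132 bases, and *Hdac5* hosts a microRNA gene of 85 bases. The stated counting options name no strand, so reads from such overlaps cannot be separated.

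Of all tested genes, 16.2% were called higher and 13.5% lower. Of 10 tested histone deacetylase genes of classes I, II and IV, 1 was called higher and 0 lower, and the median log2 fold change was 0.05. The higher gene was *Hdac11*, the class IV enzyme, at 0.43 (adjusted p = 0.0203, edgeR). Its call was lost without FxrKO liver 1 (0.34) or 2 (0.42) and with total counts alone (0.27). Of 12 genes of the SIN3 complex, another corepressor that BCL6 can bind, 0 were called higher and 2 lower, with a median of -0.27. *Sap18* was at -0.49 (adjusted p = 0.025, edgeR), and its call was lost without FxrKO liver 2, 3 or 4 at -0.46. *Ing1* was at -0.47 (adjusted p = 0.0456, edgeR), and its call was lost on leaving out any single liver other than Bcl6LKOFxrKO liver 2, with values between -0.52 and -0.40, and with at least 10 counts required in every liver (-0.45). Of 38 tested genes with a *Zbtb* symbol, most of them relatives of *Bcl6* in the BTB family, 1 was called higher and 3 lower, with a median of -0.19. The list was taken by symbol and also holds *Zbtb11os1* and *Zbtb8os*, named for lying opposite such genes, neither of which was called.

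*Zbtb4*, a repressor that binds methylated DNA, was the higher one, at 15.7, 17.1, 17.3 and 20.1 CPM in FxrKO livers 1 to 4 and 29.6, 31.6, 36.5 and 35.5 CPM in Bcl6LKOFxrKO livers 1 to 4. Its log2 fold change was 0.92 (adjusted p = 0.000144, edgeR), with no overlap between genotypes. *Zbtb44*, at -0.64 (adjusted p = 0.011, edgeR), kept its call without any single liver, whereas *Zbtb41* (-0.71) and *Zbtb7a* (-0.35) each lost theirs in 5 of 8 such fits. For *Zbtb41* these were the fits without FxrKO liver 2, 3 or 4 or Bcl6LKOFxrKO liver 3 or 4 (from -0.74 to -0.55), and for *Zbtb7a* those without FxrKO liver 1, 2 or 4 or Bcl6LKOFxrKO liver 1 or 3 (from -0.35 to -0.29). *Zbtb7a* also lost it with at least 10 counts in every liver (-0.33).

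**Figure D3:**
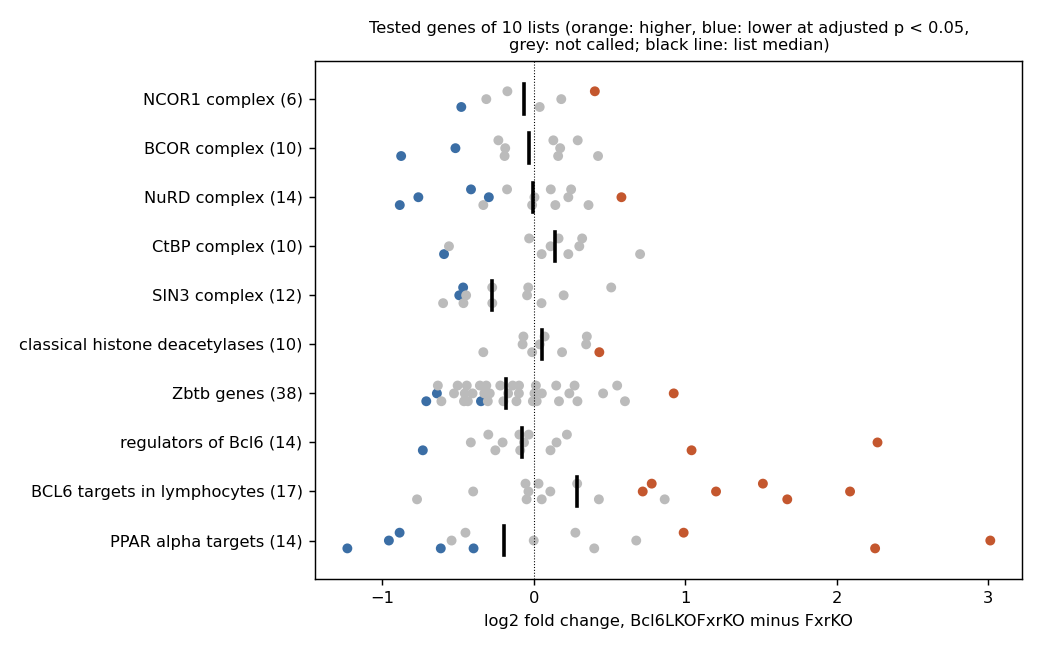
Log2 fold change (Bcl6LKOFxrKO minus FxrKO) of every tested gene in 10 lists, with the number tested in parentheses, coloured by the edgeR call, and the list's median as a black line. The corepressor complexes and deacetylases centre between -0.27 and 0.14, and the list of lymphocyte targets centres at 0.29 with 6 genes called higher and 0 lower. Of all tested genes, 16.2% were called higher and 13.5% lower.

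To set the genes beside each other, CPM were divided by the length of the counted transcript in kilobases. In FxrKO livers the order was *Hdac3* at 22.4 CPM per kilobase, *Ctbp1* at 18.6, *Hdac5* at 10.7, *Bcl6* at 10.5, *Ncor1* at 7.44, *Mta3* at 4.69, *Bcor* at 1.61, *Hdac4* at 0.924 and *Bcl6b* at 0.796. The ranges of the 4 livers overlapped between *Hdac3* and *Ctbp1*, between *Hdac5*, *Bcl6* and *Ncor1* in sequence, and between *Bcor*, *Hdac4* and *Bcl6b*. *Ctbp1* was clear of *Hdac5*, *Ncor1* of *Mta3* and *Mta3* of *Bcor*.

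In Bcl6LKOFxrKO livers *Hdac3* (23.0 CPM per kilobase), *Ctbp1* (18.2), *Hdac5* (10.2), *Mta3* (7.01), *Ncor1* (5.34) and *Bcor* (2.17) followed each other with no overlap between neighbours. *Bcl6* came next, at 1.57 CPM per kilobase, overlapping *Bcor* above it and *Bcl6b* (1.08) below, and *Hdac4* closed the order at 0.973. *Mta3* therefore stood below *Ncor1* in FxrKO livers and above it in Bcl6LKOFxrKO livers, in each case with no overlap.

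Among all tested genes, the level of *Bcl6* per kilobase lay above 66.7% of genes in FxrKO and above 21.6% in Bcl6LKOFxrKO livers. *Ncor1* went from 58.5% to 50.7% and *Mta3* from 47.7% to 57.3%, and *Hdac3* stayed at 81.0% and 81.8%. The 7 corepressor genes together summed to between 62.3 and 70.9 CPM per kilobase in FxrKO livers and between 62.9 and 71.3 in Bcl6LKOFxrKO livers. *Bcl6* amounted to between 6.62% and 21.3% of that sum in FxrKO livers and to between 1.50% and 3.68% in Bcl6LKOFxrKO livers. The summed corepressor level thus overlapped between the genotypes. The ratio of *Bcl6* to it did not, which follows from the separate *Bcl6* levels and is no further result. The sum also joins the lower *Ncor1* with the higher *Mta3*.

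**Figure D4:**
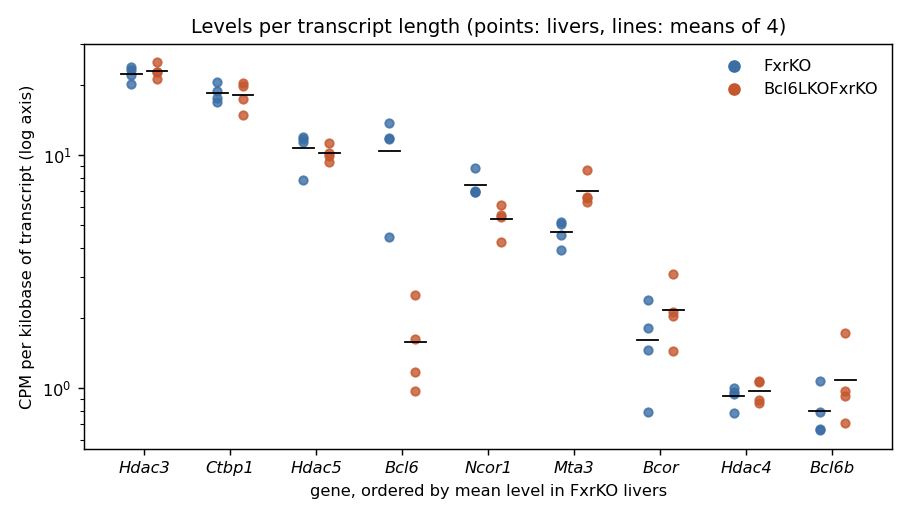
CPM per kilobase of transcript on a log axis for the 9 genes in each liver (points; FxrKO blue, Bcl6LKOFxrKO orange) with the mean of 4 livers (line), ordered by the FxrKO mean. *Bcl6* moves from a mean of 10.5 to 1.57, while *Hdac3*, *Ctbp1* and *Hdac5* are the highest of the 9 genes in both genotypes.

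Among genes listed as regulators of *Bcl6* or its protein, 2 of 14 tested were called higher and 1 lower. Over all tested genes the shares were 16.2% and 13.5%. The median log2 fold change of the 14 was -0.08. For *Fbxo10*, 1 of the 2 called higher, an action on BCL6 is not taken as known. *Ghr*, the growth hormone receptor gene upstream of STAT5, was at 373, 412, 458 and 441 CPM in FxrKO livers 1 to 4 and at 2207, 1984, 2350.1 and 1571 CPM in Bcl6LKOFxrKO livers 1 to 4. The genotypes were far apart, with a log2 fold change of 2.27 (adjusted p = 2.1e-07, edgeR). *Stat5b* (-0.06, adjusted p = 0.798, edgeR) and *Jak2* (0.22, adjusted p = 0.354, edgeR), which carry the signal of this receptor, did not pass the test, and the sign of *Stat5b* changed with limma and without either of 2 livers.

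*Foxo1*, a fasting-linked factor on the list of regulators of *Bcl6*, was at 30.7, 31.9, 30.1 and 55 CPM in FxrKO livers 1 to 4. In Bcl6LKOFxrKO livers 1 to 4 it was at 22.8, 26.3, 22.3 and 17.8 CPM. It fell in the Bcl6LKOFxrKO livers by 0.73 on the log2 scale (adjusted p = 0.0156, edgeR), and the call was lost without Bcl6LKOFxrKO liver 4 (-0.64). Without FxrKO liver 4, which was the highest, the value was -0.47 and the call was kept. *Fbxo10*, a ubiquitin ligase subunit gene, was near 1 CPM and at 1.04 (adjusted p = 0.0369, edgeR), a call lost without FxrKO liver 1, 3 or 4 or Bcl6LKOFxrKO liver 1 or 3 (0.74 to 1.11), with DESeq2 (1.04), with no filter (1.02) and with total counts alone (0.89). *Fbxo11*, whose product marks BCL6 for degradation, was at -0.21 (adjusted p = 0.423, edgeR).

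Of 24 genes listed as BCL6 targets in lymphocytes, 17 had enough reads. Of these 17, 6 were called higher and 0 lower, and the median log2 fold change of the 17 was 0.29. Whether BCL6 represses each of them was not tested. The share called higher over all tested genes was 16.2%. The summed T cell (2.499 to 3.98 against 5.34 to 7.17 CPM), stellate cell (316 to 424 against 634 to 709 CPM) and cholangiocyte markers (58.7 to 85.2 against 109 to 216 CPM) were also higher with no overlap. So was the hepatocyte sum, most of it *Alb*, though 2 of the 11 hepatocyte genes were called higher and 3 lower. The part of these markers in the calls was not tested. *Ccnd1*, a cyclin of the G1 phase, was at 38.1, 21.2, 24.1 and 26 CPM in FxrKO livers 1 to 4 and 55.4, 77.3, 51.4 and 68.3 CPM in Bcl6LKOFxrKO livers 1 to 4, a log2 fold change of 1.20 (adjusted p = 0.000409, edgeR). The survival gene *Bcl2l1* was at 0.72 (adjusted p = 0.0018, edgeR), and the chemokine receptor gene *Cxcr4*, which reached at most 3.27 CPM, at 1.51 (adjusted p = 0.00216, edgeR). For each of these 3 genes the genotypes did not overlap. The other three higher genes, named to complete the count, were *Cdkn1a* (2.09), *Ccnd2* (0.78) and *Socs2* (1.67). The *Cdkn1a* call was lost without FxrKO liver 4 or Bcl6LKOFxrKO liver 1 or 4 (1.89 to 2.03), and that of *Socs2* without FxrKO liver 2, 3 or 4 or Bcl6LKOFxrKO liver 3 (1.49 to 1.74), so that 4 of the 17 genes were called without FxrKO liver 4. With no filter both lost it and 4 were called as well. The classic lymphocyte target *Prdm1*, also named after its value was seen, had too few reads to be tested.

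PPARα targets, which BCL6 opposes in liver, went both ways, 3 of 14 being called higher and 5 lower. Over all tested genes the shares were 16.2% and 13.5%. The median log2 fold change of the 14 was -0.20. Only 3 were called lower without FxrKO liver 1 or 4 or Bcl6LKOFxrKO liver 1 or 2. *Cpt1a*, which moves fatty acids toward mitochondria, fell by 0.89 on the log2 scale (adjusted p = 0.00183, edgeR). The fatty acid transporter gene *Cd36* was higher by 0.99 (adjusted p = 0.00058, edgeR) and *Pdk4*, which restrains glucose oxidation, by 2.25 (adjusted p = 0.00523, edgeR). The hormone gene *Fgf21* was called higher as well (adjusted p = 0.00192, edgeR), at 0.728, 0.125, 0 and 0.189 CPM in FxrKO livers 1 to 4 and 3.63, 2.06, 1.56 and 1.73 CPM in Bcl6LKOFxrKO livers 1 to 4. FxrKO livers 2 to 4 were below the floor of 3 counts, so the fitted log2 fold change of 3.01 is not a measured size. It became 4.22 without FxrKO liver 1 and 3.61 with limma.

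The genes with the profile nearest to *Bcl6* over the 8 livers were sought by the root-mean-square difference of log2(CPM + 0.5), centred on each gene's own mean, among the 9360 tested genes whose counts averaged 50 or more. They were *Eif4ebp3* (0.54), *Cyp39a1* (0.55), *Srd5a1* (0.59), *Cpox* (0.59) and *Dpy19l1* (0.59). All 5 were lower in Bcl6LKOFxrKO livers, with log2 fold changes between -2.40 and -2.09, a direction that follows from how they were chosen. *Eif4ebp3*, *Cyp39a1* and *Dpy19l1* were, like *Bcl6*, lowest of their group in FxrKO liver 3. They stood at 35.8, 14.7 and 53.6 CPM there, against 41.0 to 70.6, 22.8 to 25.8 and 68.2 to 71.6 CPM in the other FxrKO livers. None of the 5 genes shared the order of the 4 Bcl6LKOFxrKO livers for *Bcl6*, in which liver 1 was the highest and liver 2 the lowest.

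The profiles nearest to *Bcl6b* were *Pusl1* (0.13), *Egfl7* (0.14), *Dmap1* (0.14), *Parp10* (0.15) and *Bin1* (0.15). Like *Bcl6b*, each was highest in Bcl6LKOFxrKO liver 4 and none passed the test between genotypes, with log2 fold changes between 0.37 and 0.50. These likenesses follow largely from how the genes were chosen. Root-mean-square differences are smaller here than for *Bcl6* because these profiles vary less, so the distances of the 2 genes cannot be set against each other.

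**Figure D5:**
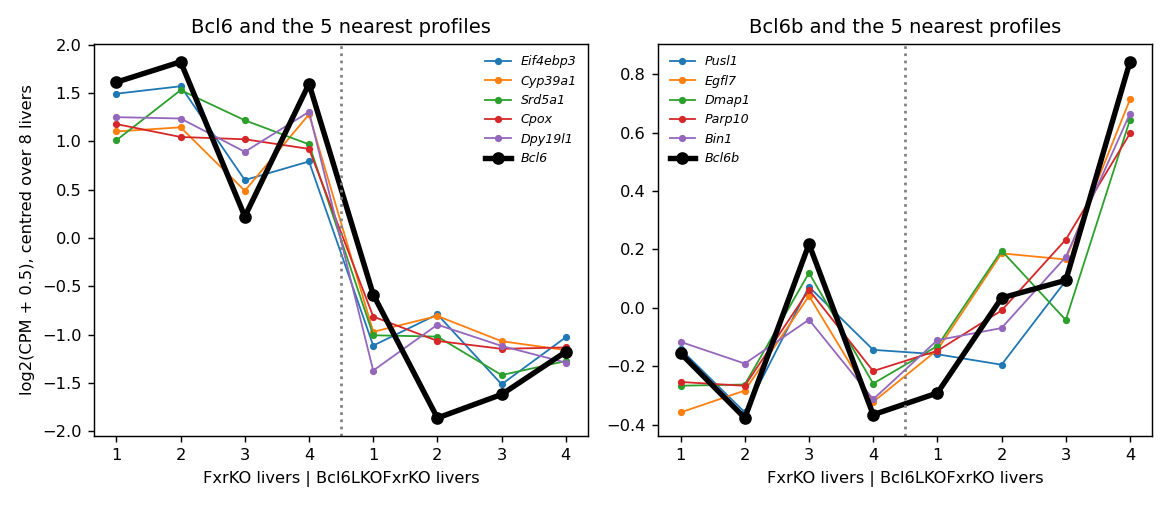
Log2(CPM + 0.5), centred over the 8 livers, for *Bcl6* (left) and *Bcl6b* (right) in black with the 5 nearest genes in colour, across FxrKO livers 1 to 4 and Bcl6LKOFxrKO livers 1 to 4; lines join livers only to show a profile. The *Bcl6* profiles step down between genotypes, and the *Bcl6b* profiles peak in Bcl6LKOFxrKO liver 4. The shared shapes follow largely from how the genes were chosen.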

How the data were processed

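RNA from 8 livers was sequenced as single-end reads on libraries made with a stranded kit. Per the paper's methods and the submitters' processing notes, the authors aligned the reads to mm10 with STAR 2.5.2, kept reads that map to 1 place, and counted reads on exons with HOMER 4.10, keeping 1 transcript per gene. The deposited values are raw counts, with no normalization. The authors used DESeq2. Here the counts were tested in R 4.3.3 with edgeR 4.0.16 (filterByExpr, TMM, robust quasi-likelihood, Benjamini-Hochberg over all tested genes). Because each CPM uses the total of the tested genes and its TMM factor, a gene's CPM depends on the other genes of its library. Single values were also tested by an exact two-sided permutation. The labels name each liver by its own mouse number, and the methods allow for fed or briefly fasted mice without saying which these were.

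The alternatives were RLE size factors, total counts alone, the 50 most counted genes left out, DESeq2 1.42.0, limma 3.58.1 (voom), a filter of 10 counts in all livers, no filter, a log2 fold threshold of 0.5 and each liver left out. The 9 genes and all gene lists were chosen with earlier results of these data known. Named beside them were, per list and direction, up to 3 called genes by their adjusted p, and the 5 nearest profiles of *Bcl6* and *Bcl6b*. A few genes that this rule gives are not reported here.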

Additional observations from a re-analysis of the deposited data

Results flagged for a closer look

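In 3 of 22 groups of 4 livers, 1 liver stood apart from the rest of its group by Dixon's test of the gap over the range, a rate that chance gives in about 1 of 20 groups. *Ncor1* in FxrKO liver 2 was the highest of its group, with a gap of 0.943 of the range. *Hdac5* in FxrKO liver 4 was the lowest, with a gap of 0.857 of the range. *Mta3* in Bcl6LKOFxrKO liver 4 was the highest, with a gap of 0.869 of the range. Without Bcl6LKOFxrKO liver 4 the *Mta3* call was kept.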

How the results depend on the processing

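No paired analysis was possible because the 2 groups share no replicate number: each liver carries its own mouse number, and no label ties mice of the 2 genotypes to a litter, cage or day. Of 135 alternative values of the 9 genes, 125 kept their direction and their side of the threshold, 3 lost the call and 7 changed sign. *Bcl6* kept its call in all 15 alternatives. Total counts alone shifted the median log2 fold change of all genes to -0.15 and gave 1404 genes called higher and 2949 lower, against 1994 and 1665; with it *Mta3* lost its call at 0.42, and *Hdac3* and *Hdac4*, which were not called, changed sign to -0.12 and -0.088. Of the 9 genes, 0 were then called higher, and the genes called lower rose to 6 in NuRD, 5 in SIN3, 4 in BCOR and 3 in NCOR1 complexes and 9 among *Zbtb* genes. With a log2 fold threshold of 0.5, 1 of the 9 genes was called lower. Leaving out each liver gave 0 to 1 of them called higher and 1 to 2 called lower, and log2 fold changes of -0.56 to -0.38 for *Ncor1*, 0.46 to 0.63 for *Mta3*, 0.12 to 0.62 for *Bcl6b*, 0.19 to 0.68 for *Bcor*, -0.20 to -0.017 for *Hdac5*, -0.010 to 0.067 for *Hdac3*, -0.0040 to 0.13 for *Hdac4* and -0.095 to 0.055 for *Ctbp1*. The cause was not tested. Of 687 values of the 46 other named genes, 613 stayed as they were, 67 lost the call, 3 gained it and 4, none of them called, changed sign. These were *Chd4* with total counts alone (-0.017) and *Stat5b* with limma voom (0.033) and without FxrKO liver 2 or Bcl6LKOFxrKO liver 4 (-0.21 to 0.055 over the livers left out). Leaving out each liver gave 2 to 4 NuRD genes, 0 to 3 SIN3 genes and 0 to 2 BCOR genes called lower, and 4 to 6 lymphocyte targets called higher. Counts of 18 to 65 a liver limit *Bcl6b*.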
